A study of Mus musculus with 2 samples.

Results

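Receptors for glutamate, GABA, glycine and acetylcholine were described in the retina of a Sox11 knockout mouse embryo and in the retina of a wild-type littermate. The embryos carried the genotypes Sox11-/- and wild-type on a C57BL/6 background, and both retinas were taken at embryonic day 18 (E18). Sox11 is a transcription factor of differentiating neurons, and the loss-of-function allele is not described further in the labels. Total RNA of 1 retina per genotype was measured on 1 Affymetrix mouse array each, so neither genotype had a replicate, no test or error could be given, and the number of arrays limits the precision. The receptor genes were chosen by symbol alone: 61 genes, measured by 121 probe sets, of 18193 genes with a probe set naming 1 gene. Each gene took the probe set with the highest mean intensity of the 2 arrays. Receptor genes outside these 61 were not analysed here.

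Fast transmission uses receptors that are themselves ion channels. AMPA, kainate, NMDA and delta receptors form the glutamate-gated family, while GABA-A, glycine and nicotinic acetylcholine receptors are pentamers of a shared design. Metabotropic glutamate, GABA-B and muscarinic receptors are G protein-coupled. Around birth, nicotinic receptors of ganglion cells carry spontaneous retinal waves that starburst amacrine cells drive with acetylcholine. Amacrine cells release GABA and glycine, and glutamatergic signalling by bipolar cells comes later.

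Values are probe set intensities on the authors' linear scale, and ratios are knockout minus wild type of log2(intensity + 5), a scale that understates the change of dim genes. A gene counted as past the low-value filter if at least 1 array read 18.6, the pooled median of all probe sets, or more. That held for 30 receptor genes, 27 of them on both arrays, and the other 31 read between 0.4 and 17.6. Levels are compared between arrays for 1 gene, never between genes, because probes differ in how they bind.

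Sox11 itself was lower on the knockout array in 5 of its 6 probe sets, with log2 ratios from -3.64 to 1.08. The probe set with the largest drop read 252.4 in the knockout and 3205.7 in the wild type; another read 740.2 in the knockout and 836.9 in the wild type, and the one that was higher read 701.7 in the knockout and 328.8 in the wild type. Which part of the gene the allele changes is not given in the labels, so the probe sets could not be placed against it. Of the retinal progenitor markers, all 11 that were measured passed the filter, with summed intensities of 14376.7 in the knockout and 14418.3 in the wild type. Markers of mesenchyme, macrophages, microglia and lens differed between the 2 arrays. With 1 array per genotype, a difference of dissection and one of genotype cannot be told apart. Markers of periocular mesenchyme summed to 713.8 in the knockout and 118.5 in the wild type, with 9 of 12 past the filter and 9 of those higher in the knockout. Macrophage and microglia markers summed to 824.5 and 382.9 in the same order, and all 13 were higher in the knockout. Lens markers summed to 902.7 in the knockout and 676.5 in the wild type, with 9 of 13 higher. No marker of these lists was at 0 on either array. Sex-linked transcripts differed too. Xist, the RNA of the inactive X chromosome, read 922.7 in the knockout and 12.3 in the wild type. The Y-linked gene Eif2s3y read 4.7 in the knockout and 214.0 in the wild type. By these transcripts the knockout retina was female and the wild-type retina male. A difference of sex and one of genotype therefore cannot be told apart either. The part of these differences in the receptor values below was not tested, except where a value is given.

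Receptor genes differed little between the arrays. Their median log2 ratio was 0.08 over all 61 genes, against -0.01 over all 18193 genes, and 0.04 over the 30 genes past the filter. Among those 30, 17 were positive and 13 negative, but 3 of the 17 passed only by their knockout value; of the 27 past on both arrays, 14 were positive. After quantile normalization the split of the 30 was 12 positive and 18 negative. A difference of 2-fold on the log2(intensity + 5) scale was reached by 1 receptor gene, Glra2, which was lower in the knockout, and by none that was higher. Over the 11553 genes past the filter, a 2-fold difference was found for 1.37%, with 0.961% higher and 0.407% lower in the knockout. The 1 receptor gene of 30 is 3.33%, a share that rests on a single gene. At 1.5-fold, a threshold chosen after the values were seen, Glra2 was lower and Chrnb3 and Chrnb4 were higher, against 5.98% of all genes, 3.81% higher and 2.17% lower. Neither Chrnb3 nor Chrnb4 reached 1.5-fold after quantile normalization or loess.

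**Figure D1:**
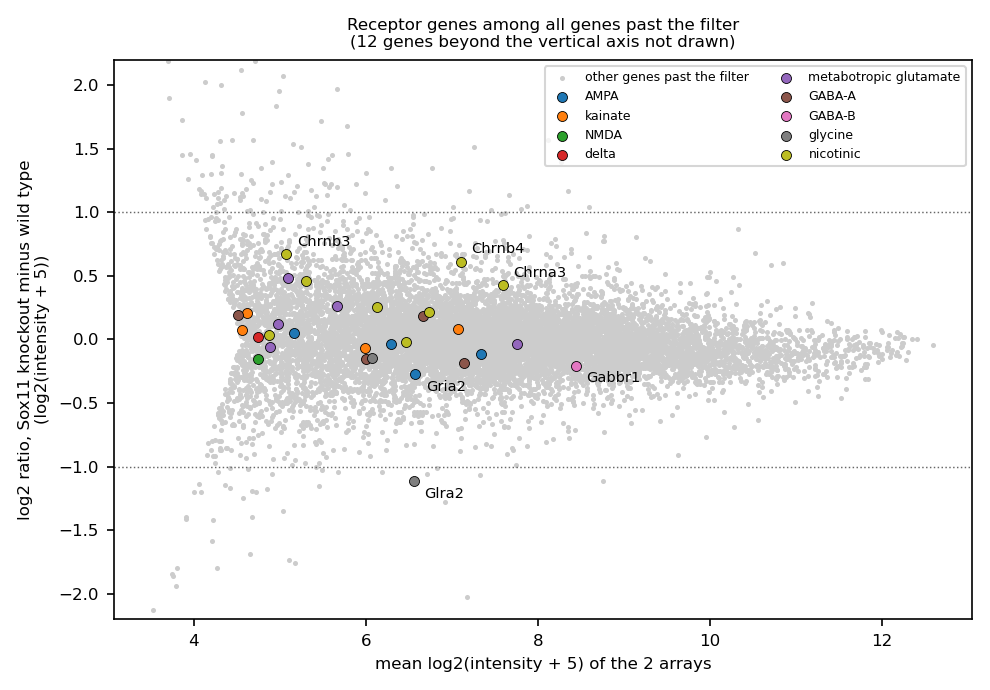
Log2 ratio (knockout minus wild type) against the mean log2(intensity + 5) of the 2 arrays for each gene past the low-value filter; grey points are other genes, coloured points the 30 receptor genes by class, and dotted lines mark 2-fold. Glra2 lies below the lower dotted line at -1.11, and the other receptor genes lie inside both lines.

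**Figure D2:**
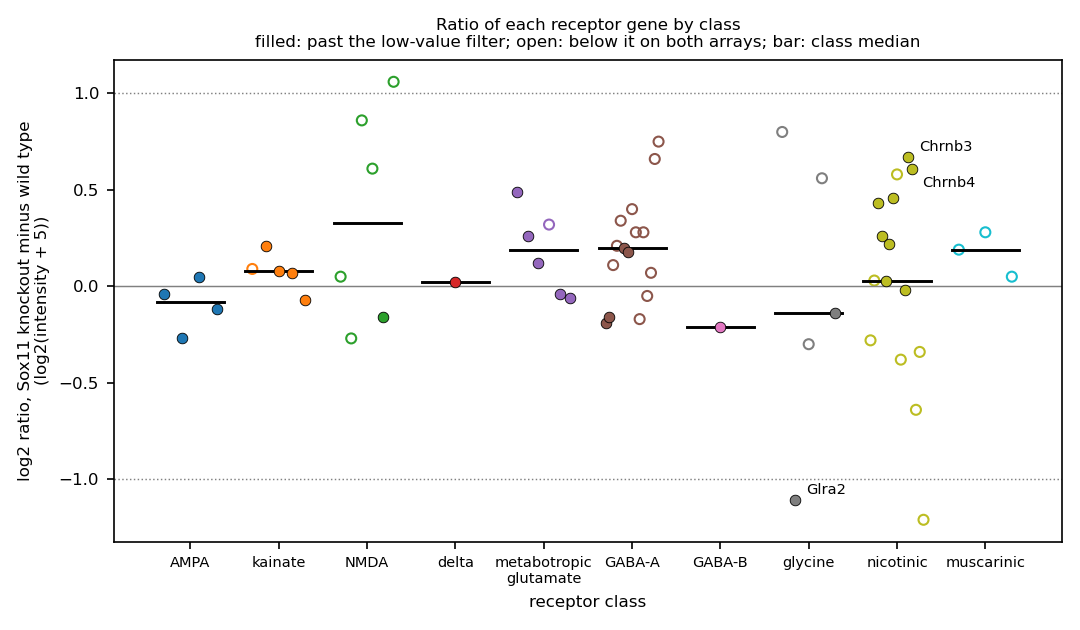
Log2 ratio of each of the 61 receptor genes by class, with filled points for genes past the low-value filter, open points for genes below it on both arrays, and a bar at the class median. Wide scatter is seen mainly in open points, and Glra2 at -1.11 is the filled point farthest from 0.

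Glycine receptors held the largest difference among receptor genes past the filter. Glra2, the alpha subunit that prevails in glycine receptors of immature neurons, read 59.0 in the knockout and 133.4 in the wild type. Its log2 ratio was -1.11, and the linear intensities were 2.26-fold apart, with both arrays well over the filter. Glra2 ranked 36th from the bottom among the 11553 genes past the filter. In its band of level, the second of 4 equal bands, 95% of genes had a ratio between -0.50 and 0.59. It was measured by 1 probe set, so no second probe set bears on the value. The ratio ran from -1.18 to -0.97 over all settings tried, of which only those of scaling and pseudocount could change it. With the pseudocount at the pooled median the ratio missed 2-fold.

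Of the other subunits, Glrb alone could be read. Glrb, the beta subunit that anchors glycine receptors at synapses, read 59.1 in the knockout and 65.8 in the wild type, a log2 ratio of -0.14, but its other probe set gave 0.29 with 61.9 in the knockout and 49.8 in the wild type. The sign for Glrb therefore depends on the probe set. Glra1, the alpha subunit of mature synapses, Glra3 and Glra4 were below the filter on both arrays, between 4.0 and 9.4 in the knockout and between 0.5 and 12.7 in the wild type. The class median of -0.14 over 5 genes rests on these dim values, and without probe sets whose suffix marks possible cross-matching it was 0.29.

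Glra2 lies on the X chromosome, and sex-linked transcripts differed between the arrays as given above. The 382 X-linked genes past the filter had a median log2 ratio of 0.00 and a central 95% from -0.50 to 0.73, and Glra2 was the 1 gene among them that was at least 2-fold lower. X-linked receptor genes past the filter besides Glra2 were Gabra3 at -0.16 and Gria3 at 0.05. Amacrine cell markers moved the same way as Glra2 by less: 11 of 13 were negative, the median was -0.12, and the list summed to 5664.8 in the knockout and 5995.7 in the wild type. Gad1, which makes GABA, had the largest ratio of that list at -0.65, and none was 2-fold lower. Markers of other late cell types were lower as well. Rod markers were negative in 8 of 9, with sums of 976.8 in the knockout and 1561.5 in the wild type, and of the 6 past the filter 3 were at least 2-fold lower, Sag, Pde6b and Nrl. Bipolar cell markers were negative in 10 of 14, their median was -0.20, and they summed to 3426.8 in the knockout and 3588.3 in the wild type. The part of any of these in the Glra2 value was not tested. Starburst amacrine markers, 3 of 6 past the filter, summed to 1771.2 in the knockout and 1644.6 in the wild type. Those 3 had ratios from 0.05 to 0.19. Sox2 alone read 1409.4 in the knockout and 1329.1 in the wild type, so the sums mostly follow that gene. Slc18a3 of the same list read 30.5 in the knockout and 29.2 in the wild type. In a whole retina, fewer cells of a type and less RNA per cell cannot be told apart.

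The window around the start of Glra2 is shown because this gene alone passed 2-fold. It lies at chrX:165327344-165327643 on the minus strand of GRCm38.p6, from 250 bases before to 50 after the annotated start, and comes from RefSeq. Capitals mark, on either strand, a GC box (GGGCGG) and a TATA box (TATAAA).
Glra2: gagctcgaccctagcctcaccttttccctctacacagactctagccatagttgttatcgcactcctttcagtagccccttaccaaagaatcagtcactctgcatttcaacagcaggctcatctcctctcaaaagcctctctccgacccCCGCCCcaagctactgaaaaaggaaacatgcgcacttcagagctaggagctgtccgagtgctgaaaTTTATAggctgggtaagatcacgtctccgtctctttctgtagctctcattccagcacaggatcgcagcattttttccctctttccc
The TATA box letters begin at -36 and the GC box letters at -102 from the start, both read on the opposite strand. Neither form of the SOX core that was searched, ACAAAG or ACAATG, nor an E-box (CANNTG) was in this window. Among 32851 windows of this length, 18.7% held ACAAAG, 12.6% held ACAATG, 72.3% an E-box, 35.7% a GC box and 13.6% a TATA box. The absence of letters from this window says nothing of sites elsewhere.

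Nicotinic receptors were higher on the knockout array in most subunits other than those of muscle that passed the filter. Of 10 such genes, 8 passed the filter, and 7 of these were positive. The median over the 8 was 0.34. Of all 11553 genes past the filter, 5510 were positive. For Chrna4 and Chrna6, which are among the 7, 1 other probe set past the filter was negative. Chrna5, also among the 7, was at 0.03 and did not keep its sign in all settings. After quantile normalization 6 of the 8 were positive with a median of 0.25, and after loess 6 of 8 with a median of 0.27. Over all 15 nicotinic genes, which include 5 dim muscle subunits, the median was 0.03, with 9 positive and 6 negative. The split into muscle subunits and others was not among the planned classes. Chrnb4, a beta subunit that pairs with the alpha subunit of Chrna3, read 164.9 in the knockout and 106.2 in the wild type, a log2 ratio of 0.61 and 1.55-fold on the linear scale. Its second probe set read 61.3 and 37.4 in that order, a log2 ratio of 0.64. Chrnb4 lay just above the central 95% of its level band, the second of 4, which ended at 0.59, and it ranked 402nd from the top of the 11553 genes.

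Chrna3, an alpha subunit of ganglion cell receptors that takes part in retinal waves, read 218.7 in the knockout and 161.0 in the wild type. Its log2 ratio was 0.43, and a second probe set gave 0.36, while its last, below the filter on both arrays, gave -0.07. That value was inside the central 95% of its band, which ran from -0.45 to 0.47. Chrnb2, the partner of most neuronal alpha subunits, was level, at 83.1 in the knockout and 84.4 in the wild type, a log2 ratio of -0.02, with a second probe set at -0.24. The 2 beta subunits thus stood apart from each other on these arrays.

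Chrnb3 and Chrna6 are accessory and alpha subunits that mark ganglion cells and dopaminergic neurons. Chrnb3 read 37.6 in the knockout and 21.7 in the wild type, a log2 ratio of 0.67, inside the wide central 95% of -0.81 to 1.12 for dim genes. Chrna6 read 110.1 in the knockout and 94.1 in the wild type, a log2 ratio of 0.22, while its second probe set gave -0.19.

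Chrna7, which forms receptors of a single subunit kind, read 41.3 in the knockout and 28.7 in the wild type, a log2 ratio of 0.46, and kept its sign in all settings that gave it a value (0.33 to 0.89). Its second probe set, below the filter on both arrays, read 9.5 in the knockout and 0.8 in the wild type. Chrna4 and Chrna5 depended on the probe set. Chrna4, a common partner of Chrnb2 in brain, read 71.4 in the knockout and 58.9 in the wild type, a log2 ratio of 0.26, and its 2 other probe sets gave 0.20 and -0.57. Chrna5, an accessory subunit, read 24.6 in the knockout and 23.9 in the wild type, a log2 ratio of 0.03, against 0.61 from its dimmer probe set. Chrna2 and Chrna9 were below the filter on both arrays.

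Ganglion cell markers were also higher in the knockout. Of the 17 measured, all passed the filter, 13 had a positive ratio, the median was 0.19, and the sums were 9964.4 in the knockout and 9071.5 in the wild type. Ebf3 and Isl2, transcription factors of ganglion cells, had ratios of 0.65 and 0.61, Eomes, a transcription factor of some ganglion cells, had -0.38, and the neurofilament gene Nefm had 0.37. Horizontal cell markers were also higher: 6 of 8 were positive, the median was 0.30, and the sums were 1430.0 in the knockout and 1261.9 in the wild type. The part of either cell type in the nicotinic values was not tested.

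Chrnb4, Chrna3 and Chrna5 lie beside each other on chromosome 9 with no protein-coding gene between them, and Chrnb3 and Chrna6 are neighbours on chromosome 8. The windows of Chrna3 and Chrnb4 are shown as those of 2 neighbours in this cluster with a log2 ratio of 0.43 or more, a choice made after the values were seen. They lie at chr9:55026513-55026812 and chr9:55048495-55048794, both on the minus strand of GRCm38.p6, and come from RefSeq. Capitals mark, on either strand, E-boxes (CANNTG), GC boxes (GGGCGG) and the SOX core form ACAATG.
Chrna3: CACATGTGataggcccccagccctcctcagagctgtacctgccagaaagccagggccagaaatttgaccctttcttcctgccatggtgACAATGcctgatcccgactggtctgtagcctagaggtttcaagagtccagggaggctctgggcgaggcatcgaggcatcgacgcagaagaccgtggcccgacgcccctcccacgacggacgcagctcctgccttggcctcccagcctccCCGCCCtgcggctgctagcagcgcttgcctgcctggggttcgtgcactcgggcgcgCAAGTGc
Chrnb4: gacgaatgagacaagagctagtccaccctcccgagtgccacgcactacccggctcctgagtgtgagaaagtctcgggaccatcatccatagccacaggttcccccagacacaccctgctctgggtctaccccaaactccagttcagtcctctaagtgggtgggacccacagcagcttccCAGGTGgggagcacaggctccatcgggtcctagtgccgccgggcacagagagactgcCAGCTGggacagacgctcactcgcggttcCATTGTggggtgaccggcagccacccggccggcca
Both windows held ACAATG once, at -162 in Chrna3 and, on the opposite strand, at 15 in Chrnb4. Chrna3 held 3 E-boxes, 2 of them overlapping at the far end, and 1 GC box, while Chrnb4 held 2 E-boxes and no GC box. Their GC contents were 64.3% and 63.0%, against a median of 52.7% over all windows and 50.3% for Glra2. RefSeq windows were matched for 45 of the 61 receptor genes, 53 windows in all with a median GC content of 59.3%. Of these, 15.1% held ACAATG and 3.77% held ACAAAG. A match is a description of letters, not a site.

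**Figure D3:**
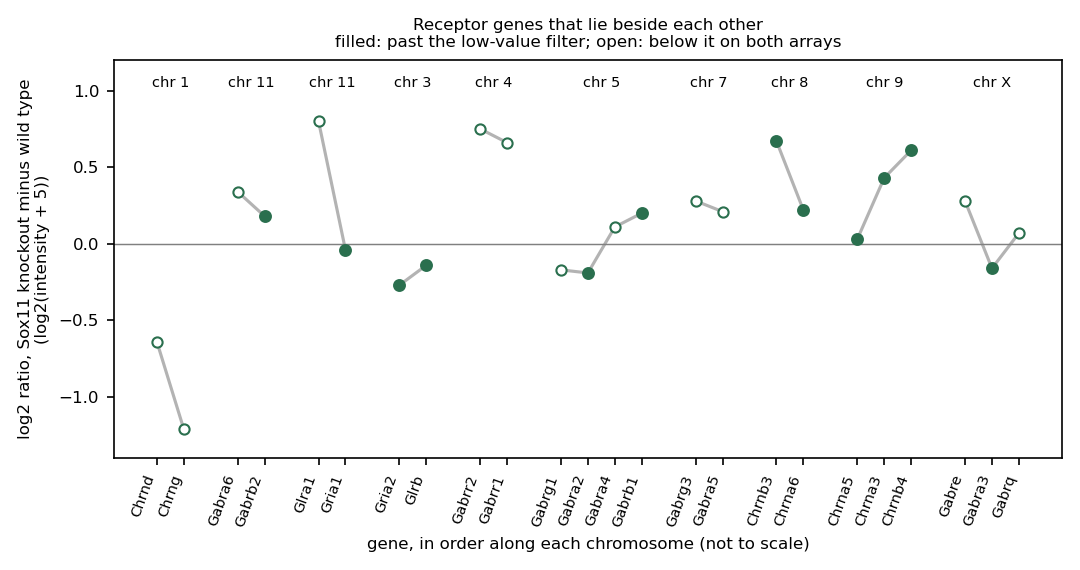
Log2 ratio (knockout minus wild type) of receptor genes that lie beside each other, in order along each chromosome and not to scale, with filled points past the low-value filter and open points below it. On chromosome 9, Chrna3 and Chrnb4 are at 0.43 and 0.61 while Chrna5 is at 0.03.

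Muscle nicotinic subunits could not be compared. Chrna1, Chrnb1, Chrnd, Chrne and Chrng, which form the receptor of the neuromuscular junction, read between 0.7 and 8.8 in the knockout and between 3.9 and 12.9 in the wild type. All 5 were below the filter on both arrays, so no fold is given. Skeletal muscle markers passed the filter in 3 of 22 genes and summed to 217.5 in the knockout and 207.2 in the wild type. Tnni1, the slow troponin subunit, was the exception among them, at 2.0 in the knockout and 33.4 in the wild type.

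Muscarinic receptor genes Chrm1, Chrm3 and Chrm4, which couple acetylcholine to G proteins, read between 1.0 and 15.2 in the knockout and between 0.8 and 12.7 in the wild type. None passed the filter.

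GABA-A receptor genes were near level where they could be read. Gabrb2, a beta subunit of synaptic receptors, read 103.2 in the knockout and 90.3 in the wild type, a log2 ratio of 0.18, and its 5 probe sets lay between 0.01 and 0.47. Gabra2, an alpha subunit prominent in embryonic brain, read 127.6 in the knockout and 145.8 in the wild type, a log2 ratio of -0.19, with other probe sets at -0.08 and 0.16. Gabra3, another early alpha subunit, read 55.8 in the knockout and 62.8 in the wild type, a log2 ratio of -0.16, whereas its second probe set gave 0.54. The direction for Gabra2 and Gabra3 was therefore not the same in all their probe sets.

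Gabrb1 was past the filter on the knockout array only, at 19.4 in the knockout and 16.3 in the wild type. That is at least 1.04-fold higher by this probe set. Its other probe sets, below the filter on both arrays, gave log2 ratios of -0.53, -0.54 and 0.02. The sign for Gabrb1 therefore depends on the probe set. The other 11 GABA-A genes read between 4.9 and 15.9 in the knockout and between 0.9 and 15.3 in the wild type. They were Gabra4, Gabra5, Gabra6, Gabrd, Gabre, Gabrg1, Gabrg3, Gabrp, Gabrq and the rho subunits Gabrr1 and Gabrr2, which mature bipolar cells use. The GABA-A median of 0.20 over 15 genes rests mostly on these dim genes, and over the 4 past the filter it was 0.01. Gabbr1, a subunit of the metabotropic GABA-B receptor, read 318.2 in the knockout and 368.0 in the wild type. Its log2 ratio of -0.21 was inside the central 95% of its band, -0.37 to 0.35, and its other probe sets past the filter gave -0.12 and 0.10.

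AMPA receptor genes were level to slightly lower in the knockout. Gria2, the subunit whose edited form keeps calcium out of the channel, read 81.7 in the knockout and 99.9 in the wild type, a log2 ratio of -0.27. All 3 of its probe sets were negative, at -0.27, -0.75 and -0.17, and the one at -0.75 read 40.0 in the knockout and 70.7 in the wild type. Gria2 was thus lower in the knockout by every probe set, though by different amounts.

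Gria4, a subunit of fast-gating receptors, read 150.5 in the knockout and 163.5 in the wild type, a log2 ratio of -0.12, and its other 2 probe sets gave -0.37 and -0.11. Gria1 read 72.6 in the knockout and 74.6 in the wild type, a log2 ratio of -0.04, and Gria3 read 31.4 and 30.1 in that order, a log2 ratio of 0.05. The AMPA median was -0.08 over 4 genes and stayed between -0.13 and -0.07 over the settings.

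Kainate receptor genes were level. Grik3 read 133.8 in the knockout and 126.2 in the wild type, a log2 ratio of 0.08, and Grik5, an auxiliary high-affinity subunit, read 57.0 in the knockout and 59.9 in the wild type, a log2 ratio of -0.07. Grik2 and Grik4 passed the filter on the knockout array only, with 21.5 in the knockout and 17.9 in the wild type for Grik2, at least 1.16-fold higher, although its second probe set gave a log2 ratio of -0.12. Grik4 read 19.2 in the knockout and 18 in the wild type, at least 1.03-fold higher. Grik1, a subunit of OFF bipolar cells in the mature retina, was below the filter at 7.8 in the knockout and 7.0 in the wild type.

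NMDA receptor genes were mostly too dim to compare. Grin3a, a subunit that lowers the calcium flux of young receptors, read 20.5 in the knockout and 23.4 in the wild type, a log2 ratio of -0.16. Its 2 other probe sets, below the filter on both arrays, gave -0.61 and -0.31. Grin2a, Grin2b, Grin2c, Grin2d and Grin3b read between 0.9 and 17.6 in the knockout and between 0.7 and 12.8 in the wild type. The NMDA median of 0.33 came from those dim genes, and it was 0 once intensities below the filter were set to it. Grid1, the delta receptor gene, read 22 in the knockout and 21.7 in the wild type, a log2 ratio of 0.02.

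Metabotropic glutamate receptor genes differed by less than 1.5-fold. Grm7, a presynaptic receptor of low affinity, was level at 208.2 in the knockout and 214.0 in the wild type, a log2 ratio of -0.04. Grm2, a receptor found on starburst amacrine cells, read 35.5 in the knockout and 23.9 in the wild type, a log2 ratio of 0.49 that was inside the -0.81 to 1.12 of its band. Grm3, of the same group, read 50.7 in the knockout and 41.5 in the wild type, a log2 ratio of 0.26.

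Both genes of that group were thus higher in the knockout, each by 1 probe set. Grm4 read 28 in the knockout and 25.4 in the wild type, a log2 ratio of 0.12, and Grm8 read 24.1 in the knockout and 25.3 in the wild type, a log2 ratio of -0.06. Grm5 was below the filter, at 10.9 in the knockout and 7.7 in the wild type. Partners of metabotropic signalling in ON bipolar cells, such as the channel gene Trpm1 at -0.19, had a median of -0.13 over 8 genes, and none of the 6 past the filter was 2-fold apart.

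**Figure D4:**
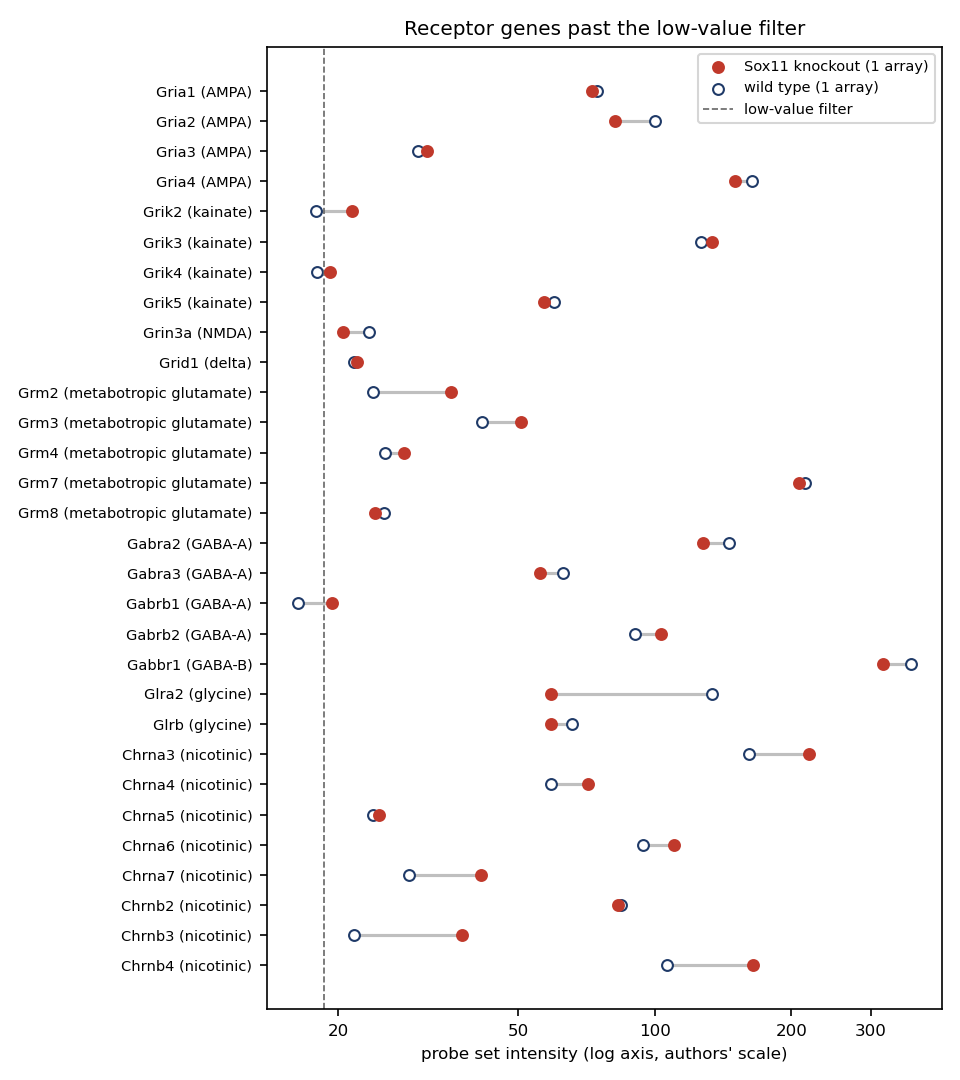
Intensity (log axis, authors' scale) of the 30 receptor genes past the low-value filter, with a red point for the Sox11 knockout array, an open blue point for the wild-type array and a dashed line at the filter of 18.6; points are to be compared within a row. Glra2 has the widest gap, 59.0 in the knockout and 133.4 in the wild type, and Chrna3, Chrnb3 and Chrnb4 are higher in the knockout.

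Agreement between probe sets set the size of difference that could be read. For the 15 receptor genes with several probe sets past the filter, the pooled SD of log2 ratios within a gene was 0.26, as it was over 5612 genes of the array. In 8 of the 15 genes all probe sets had the same sign, and in the other 7 they did not. Those 7 were Grik2, Gabra2, Gabra3, Gabbr1, Glrb, Chrna4 and Chrna6. This spread is between probes on the same arrays and holds no spread between embryos.

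**Figure D5:**
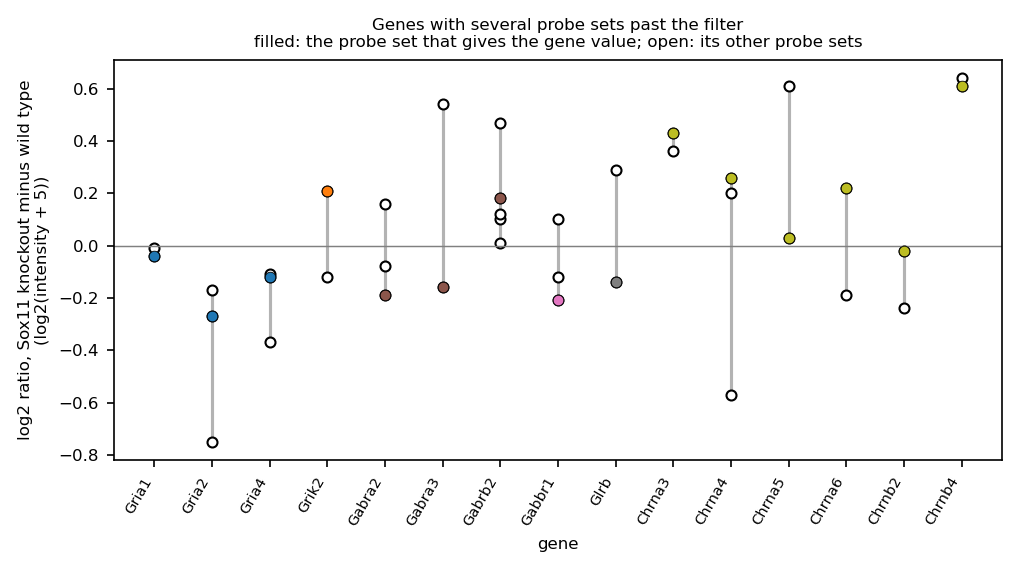
Log2 ratios (knockout minus wild type) of every probe set past the low-value filter for the 15 receptor genes with several of them; filled points are the probe sets that give the gene values and open points the others. The probe sets of Chrna3 and of Chrnb4 drawn here lie at 0.36 or above, all 5 of Gabrb2 lie above 0, and all 3 of Gria2 lie below 0.

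Proteins that assemble, traffic or anchor these receptors were described from lists by role. Of 34 measured partners of glutamate receptors, 27 passed the filter, 16 with a positive and 11 with a negative ratio, and the median over the 34 was 0.08. Neto1, an auxiliary subunit of kainate receptors, had the largest ratio at 0.82, with 19.3 in the knockout and 8.8, below the filter, in the wild type, and Cacng7, an auxiliary AMPA subunit, had -0.53. The scaffold genes Homer2 and Homer3 went opposite ways, at 0.49 and -0.48.

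Partners of GABA and glycine receptors had a median of -0.01 over 16 genes. Slc12a5, the chloride exporter that turns GABA and glycine inhibitory as neurons mature, read 176.2 in the knockout and 218.7 in the wild type, a log2 ratio of -0.30, the largest in size of that list. Partners of acetylcholine receptors had a median of -0.15 over 12 genes, and of 9 past the filter 3 were higher and 6 lower in the knockout. Lypd6b and Lypd6, which encode toxin-like modulators of nicotinic receptors, were lower in the knockout at -0.57 and -0.28, and Agrn, the organiser of the neuromuscular synapse, was at -0.31. None of the partner genes past the filter in these lists was 2-fold apart, against 1.37% of all genes.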

How the data were processed

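Biotin-labelled cRNA from amplified RNA was put on 1 array per genotype, per the labels' protocols. The authors deposited 1 linear, scaled intensity per probe set and array. Their software is not given in the sources used here. A trimmed mean, without the outer 2% on either side, came to 100.0 for each array. The 64 control probe sets were left out, which left 45037. GEO's platform annotation gave 1 symbol for 34945 of them, several for 932 and none for 9160; all 61 receptor genes matched GRCm38.p6 names by Entrez number. The pseudocount of 5 and the filter of 18.6 are the pooled 25th percentile and median. No normalization between arrays was added. With 1 array per genotype there is no test, and intensities and log2 ratios are described beside all genes. Every receptor gene past the filter was named with both intensities, and up to 4 genes per further list. The members and lists were chosen with earlier results of these data known. The procedure was run on simulated data with large changes planted in brighter genes, which does not bear on small changes or dim genes. Alternatives were median centring, quantile normalization, loess, other pseudocounts and filters, other probe set choices and a floor at the filter. Python 3.11.15, pandas 2.3.3, numpy 2.4.6 and statsmodels 0.14.6 were used.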

Additional observations from a re-analysis of the deposited data

How the results depend on the processing

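With 1 array per genotype, a value was taken as moved where it changed by more than 0.26, the pooled SD between probe sets of a gene, or, for a count, by more than 1.5 times. By that measure 558 of 616 values of single receptor genes did not move. These include the settings that changed only the filter, where a gene's ratio could not move, and median centring, which shifted all ratios alike. Glra2 stayed negative in all settings run. With 1 probe set and both arrays over the filter, only scaling or the pseudocount could change its value. Of the 30 genes past the filter, 21 kept their sign in every setting, 11 higher and 10 lower in the knockout; Chrna5, Gabra3, Gabrb1, Glrb, Gria3, Grid1, Grik4, Grm4 and Grm7 did not. The NMDA median was 0.60 without a pseudocount, 0 with intensities below the filter set to it, and -0.16 with only genes past the filter (a setting chosen after seeing the data) or with the passing probe set of highest mean log2 value. In these last 2 settings the glycine median was -0.63 and the nicotinic median 0.34, against -0.14 and 0.03 in the main setting. With the filter at 109.4, the GABA-A median was -0.19, the glycine median -1.11 and the nicotinic median 0.43; without probe sets with an s, x or a suffix, the glycine median was 0.29. The count of 2-fold lower receptor genes was 0 with a pseudocount of 18.6 and 2 without a filter, where 1 was 2-fold higher. Genes at least 1.5-fold higher numbered 0 after quantile normalization, after loess and with a pseudocount of 18.6, 1 with the filter at 109.4, 1 without the suffixed probe sets and 8 without a filter. Those at least 1.5-fold lower numbered 3 without a filter and 2 without the suffixed probe sets. Apart from the changes in which genes or probe sets were counted, the cause was not tested. No paired analysis was possible because each genotype has 1 array and the labels carry no replicate numbers. Signal near the filter limits the NMDA, muscarinic and most GABA-A genes.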
